A study of Mus musculus with 2 samples.

Results

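The 10 genes described here are protein-coding neighbours of Sptbn1 on mouse chromosome 11, followed in fibroblasts labelled as Sptbn1 knockout and as wild type. They were taken by name from the deposited expression table, which lists 25430 gene names in 25587 rows and prints them as ACYP2, BOD1, PSME4, RTN4, MTIF2, CCDC88A, CCDC104, PRDXDD1, SMEK2 and EML6. In the order of the chromosome they are Ppp4r3b, Cfap36, Ccdc88a, Prorsd1, Mtif2, Rtn4 and Eml6 on one side of Sptbn1, and Acyp2, Psme4 and Bod1 on the other. All lie within 10 places of Sptbn1, counted in protein-coding genes, and Sptbn1 itself is left out of the group. A further 10 protein-coding genes lie within the same 10 places and are given for comparison. The group is thus a named part of the 20 protein-coding genes within these places, and position alone does not define it. For a repeated name the row was selected on its mean FPKM over both libraries, which applied to 0 of the 10. The group was drawn up with earlier results of these libraries known, so its values are a description.

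The knockout library came from primary embryonic fibroblasts labelled Sptbn1 knockout, called homozygous in the series' title, and the wild-type library from fibroblasts of the same stage labelled wild type. Both came from matings of heterozygous Sptbn1 parents, with embryos collected at E13.5, and both were grown in medium with 10% fetal bovine serum. The labels do not give the targeted part of Sptbn1, the strain background, or how many embryos or cultures went into a library. There was 1 library per genotype, so no difference below has a replicate check, and every statement compares 2 libraries. In such bulk RNA, fewer cells of a type and less RNA per cell cannot be told apart.

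Genes that sit side by side on a chromosome can share open chromatin, enhancers and promoters, and the transcription of one gene can reach into the next. A targeted allele also travels with the DNA that surrounds it, since closely linked genes are rarely separated by recombination. For these reasons the neighbours of a targeted gene are a customary check in a knockout. Sptbn1 encodes beta-2 spectrin, a long scaffold protein of the membrane skeleton that is also described as an adaptor of SMAD proteins in TGF-β signalling. Its neighbours have unrelated roles, in protein phosphatase control, proteasomes, mitochondria, the endoplasmic reticulum and microtubules.

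Of the 10 neighbours, 2 differed by more than 1.5-fold, in opposite directions, as did 2.27% of all genes that averaged at least 1 FPKM. Bod1, which encodes a kinetochore protein needed for correct chromosome attachment in mitosis, was higher in the knockout library, at 230% of the wild-type value. Acyp2, the muscle-type acylphosphatase, which hydrolyses acyl phosphate bonds, was lower in the knockout library, at 46.4% of the wild-type value. The 7 other neighbours that averaged at least 1 FPKM were at 83.6% to 123% of their wild-type values. Eml6 was barely detected in either library. FPKM, as the authors deposited them, count the fragments of a gene per kilobase of its transcript and relative to the size of the library. Levels of different genes are set side by side below as deposited. How well reads were assigned to each gene was not tested.

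The start regions of Acyp2 and Bod1 are shown because these were the neighbours with the largest differences. Each runs from 250 bases before to 50 bases after the annotated start, 5′ to 3′ on the gene's own strand, from RefSeq on build GRCm38.p6, which is not the build the reads were aligned to. The Acyp2 region is chr11:30649347-30649646 and the Bod1 region is chr11:31671813-31672112, both on the minus strand, as is Sptbn1. Capitals mark the CG dinucleotides, of which there are 21 in Acyp2 and 24 in Bod1.
Acyp2: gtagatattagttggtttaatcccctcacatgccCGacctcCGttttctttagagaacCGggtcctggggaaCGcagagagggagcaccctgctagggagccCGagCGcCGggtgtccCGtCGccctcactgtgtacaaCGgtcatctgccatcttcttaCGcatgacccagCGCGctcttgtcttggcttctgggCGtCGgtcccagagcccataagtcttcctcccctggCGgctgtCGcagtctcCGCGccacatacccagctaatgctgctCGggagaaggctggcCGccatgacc
Bod1: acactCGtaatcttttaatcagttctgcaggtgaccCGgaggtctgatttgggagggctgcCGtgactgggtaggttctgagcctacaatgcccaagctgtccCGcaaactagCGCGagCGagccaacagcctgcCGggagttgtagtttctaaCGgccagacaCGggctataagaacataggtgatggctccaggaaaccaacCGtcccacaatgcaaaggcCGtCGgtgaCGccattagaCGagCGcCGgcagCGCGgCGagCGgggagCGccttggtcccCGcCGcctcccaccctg
The ratio of observed to expected CG dinucleotides was 0.77 for Acyp2 and 0.88 for Bod1, so both start in CG-rich sequence. That is a feature of most of these neighbours. RefSeq lists 12 start regions for the 10 genes, 3 of them for Rtn4, and 75% of the 12 have a ratio above 0.6. Of 21262 start regions of protein-coding genes, 47.6% do.

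The 12 start regions were searched on both strands for short motifs, as a description of their letters. The TATA box (TATAAA) was in 0 of the 12, and in 13.6% of all 32851 start regions in the same table. The GC box (GGGCGG) was in 7 of the 12, against 35.7% of all, and the CCAAT box (CCAAT) in 2 of the 12, against 37.4% of all. The short SMAD box (CAGAC) was in 7 of the 12, against 49.6% of all. It was found in the Bod1 region and not in the Acyp2 region. The palindromic SMAD box (GTCTAGAC) was in 0 of the 12 and in 0.213% of all. The AP-1 element (TGANTCA) was in 1 of the 12, at Rtn4, against 7.81% of all. The cAMP response element (TGACGTCA) and the E-box (CACGTG) were in 0 of the 12, against 1.79% and 7.15% of all. Each motif was counted on its own, whether or not its matches overlapped those of another.

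Sptbn1, the targeted gene, had 36.6 FPKM in knockout and 69.6 FPKM in wild-type fibroblasts. The lower level is the direction its labels give, but 52.5% of the wild-type level remained in the library labelled knockout, so this level does not by itself show a homozygous loss. Its log2 ratio was -0.91. Here and below, a log2 ratio is log2 of knockout FPKM plus 1 over wild-type FPKM plus 1, a scale that understates differences of low genes. A gene is called measured where its FPKM averaged at least 1 over both libraries, which 11070 did. Over these the median log2 ratio was -0.05, with 4087 genes above 0 and 6982 below. The summed FPKM differed, at 279927 for the knockout and 386567 for the wild-type library, and the number of fragments behind them is unknown. In 3100 rows whose mean lay below 0.3 FPKM, plain FPKM ratios piled up at a log2 of 0.69, with 395 rows within 0.005 of it. By that step, 1 fragment counted for 1.61 times more FPKM in the knockout library than in the wild-type library, so the knockout library was the shallower. The fibroblast markers (10 genes, among them Col1a1, Col1a2 and Vim) were all measured and summed to 3349 FPKM in knockout and 3481 FPKM in wild-type fibroblasts. The macrophage markers were also all measured and lower in 8 of 10 cases, with sums of 179.1 FPKM in knockout and 242.4 FPKM in wild-type fibroblasts. Their part in the differences of the neighbours was not tested. The sums of the 4 epithelial markers were 1.71 and 1.98 FPKM in the knockout and wild-type libraries, those of the 4 endothelial markers were 1.04 and 1.13 FPKM, and those of the 4 neural markers 20.4 and 19.3 FPKM.

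**Figure D1:**
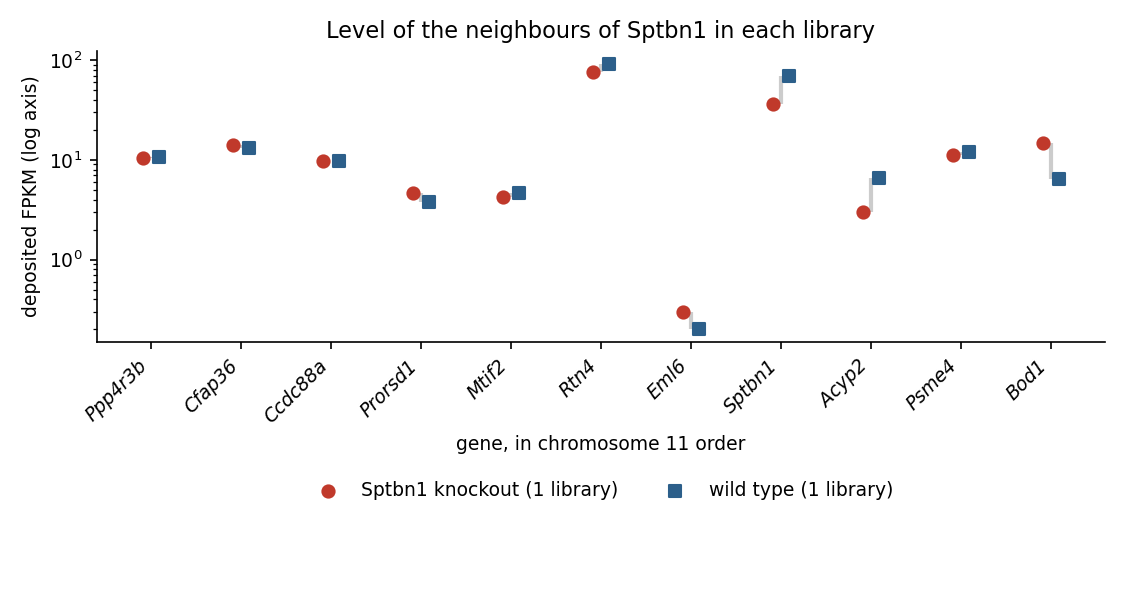
Deposited FPKM (log axis) of the 10 neighbours and of Sptbn1 in the knockout library (circles) and the wild-type library (squares), in the order of chromosome 11, with 1 library per genotype and no error bars. Bod1 lies higher in the knockout library (14.6 against 6.37 FPKM), and Acyp2 (3.03 against 6.53 FPKM) and Sptbn1 lie lower there.

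Acyp2 is the nearest measured neighbour of Sptbn1, 2 places away, with 4930505A04Rik between them, listed at 0 in both libraries. Acyp2 had 3.03 FPKM in knockout and 6.53 FPKM in wild-type fibroblasts. Its log2 ratio of -0.90 was next to that of Sptbn1 itself. Of the 11070 measured genes, 51 had a log2 ratio as low as that of Acyp2 or lower, and 50 as low as that of Sptbn1 or lower. This nearness depends on the pseudocount of 1 FPKM. In plain FPKM the log2 of the ratio was -1.11 for Acyp2 and -0.93 for Sptbn1. The levels of the pair were far apart, the mean of both libraries being 4.78 FPKM for Acyp2 and 53.1 FPKM for Sptbn1. The authors' deposited table gave p-values of 0.0108 to Acyp2 and 1.8e-05 to Sptbn1. No spread between cultures enters such p-values.

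Bod1 lies 9 places from Sptbn1, on the same side as Acyp2. It had 14.6 FPKM in knockout and 6.37 FPKM in wild-type fibroblasts, a log2 ratio of 1.09. Of the 11070 measured genes, 31 had a log2 ratio as high or higher. Among the 10 neighbours Bod1 held the second highest level in the knockout library and the seventh in the wild-type library, where it lay next to Acyp2 at 6.53 FPKM. Acyp2 ranked 9 of 10 in the knockout library and 6 of 10 in the wild-type library. A p-value of 4.92e-06 stood beside Bod1 in the authors' deposited table.

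Psme4 lies between these genes, 3 places from Sptbn1 and next to Acyp2. It encodes the proteasome activator PA200, which caps the 20S core particle. It had 11.2 FPKM in knockout and 12.1 FPKM in wild-type fibroblasts, a log2 ratio of -0.10. The next gene outward from Acyp2 thus had near-equal levels in the 2 libraries. Stc2, the gene of the secreted glycoprotein stanniocalcin 2, adjoins Bod1 and had 4.16 FPKM in knockout and 4.13 FPKM in wild-type fibroblasts. Cpeb4, a cytoplasmic polyadenylation element binding protein, adjoins Bod1 on the other side and had 8.28 FPKM in knockout and 12.8 FPKM in wild-type fibroblasts, a log2 ratio of -0.57.

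The 7 genes on the opposite side include 6 measured ones, with log2 ratios between -0.26 and 0.24. Rtn4, the most abundant of the 10, encodes the reticulons known as Nogo, which shape the tubules of the endoplasmic reticulum and, in neurons, limit neurite growth. It had 76.6 FPKM in knockout and 91.6 FPKM in wild-type fibroblasts, a log2 ratio of -0.26. That was the lowest value on this side, at 83.6% of the wild-type level. The authors' deposited table gave it a p-value of 0.168.

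Eml6, a member of the echinoderm microtubule-associated protein-like family, lies between Rtn4 and Sptbn1. It had 0.30 FPKM in knockout and 0.203 FPKM in wild-type fibroblasts, both under the limit for a measured gene. The log2 of its plain FPKM ratio was 0.56, which lies outside the band of 0.005 around 0.69 where low rows piled up. In the GENCODE annotation of a later build, Rtn4 and Eml6 run towards each other and share 1284 exon bases, 18.4% of the exon bases of Rtn4 and 13.8% of those of Eml6. The library kit is not stated to keep strand, so reads from the shared end cannot be assigned to one or the other.

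Mtif2 encodes the mitochondrial translation initiation factor that brings the initiator tRNA to mitochondrial ribosomes. It had 4.26 FPKM in knockout and 4.63 FPKM in wild-type fibroblasts, a log2 ratio of -0.10. Prorsd1, listed under its older name Prdxdd1 and named for a domain of prolyl-tRNA synthetases, had 4.62 FPKM in knockout and 3.75 FPKM in wild-type fibroblasts. Its log2 ratio of 0.24 was the highest on this side, at 123% of the wild-type level. The authors' deposited table gave it a p-value of 0.471.

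Ccdc88a encodes girdin, an actin-binding protein and substrate of the kinase AKT with a role in cell migration. It had 9.77 FPKM in knockout and 9.67 FPKM in wild-type fibroblasts, a log2 ratio of 0.01. Cfap36, listed as Ccdc104, encodes a cilium-associated protein that binds the small GTPase ARL3. It had 14.2 FPKM in knockout and 13.2 FPKM in wild-type fibroblasts, a log2 ratio of 0.09. Ppp4r3b, listed as Smek2, encodes a regulatory subunit of protein phosphatase 4 and had 10.4 FPKM in knockout and 10.7 FPKM in wild-type fibroblasts, a log2 ratio of -0.04. These 3 genes, at 8 to 10 places from Sptbn1, were within 10% of equal levels. Ppp4r3b is the outermost member, at place 10, and the next gene outward, Pnpt1 at place 11, had 6.41 FPKM in knockout and 8.37 FPKM in wild-type fibroblasts.

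Counted together, 9 of the 10 neighbours were measured, with 4 above 0 and 5 below and a median log2 ratio of -0.04. Of all measured genes, 36.9% lay above 0 and 63.1% below, with the median at -0.05. A difference of 1.5-fold on the log2 scale (0.58) was passed by 2 of the 9, 1 in each direction. Among all measured genes 2.27% passed it, 1.04% higher and 1.23% lower in the knockout library. That set is not limited to protein-coding genes, and 1.46% of the measured protein-coding genes of the other chromosomes passed. Bod1 also passed 2-fold on this scale, as did 0.741% of all measured genes. Acyp2, at 46.4% of the wild-type value, was past 2-fold in plain FPKM but not after 1 FPKM was added to each value. Among measured genes with a mean of 1 to 5 FPKM, the range that holds Acyp2, 2.04% passed 1.5-fold, and in the range of 5 to 20 FPKM, which holds Bod1, 1.54% did. No test goes with these counts, because the neighbours were listed with their values known. Bod1 and Acyp2 were also the 2 of the 9 with p-values below 0.05 in the authors' deposited table, the other 7 lying between 0.168 and 0.924. Such p-values went to 5.6% of all measured genes in the authors' deposited table. A low value there need not mark a large difference. Col1a1, at 98.2% of its wild-type level, was given 0.0256 by the authors, and Dcn, at 79.6%, was given 0.072. The summed level of the 10 genes was 149.0 FPKM in knockout and 158.8 FPKM in wild-type fibroblasts.

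**Figure D2:**
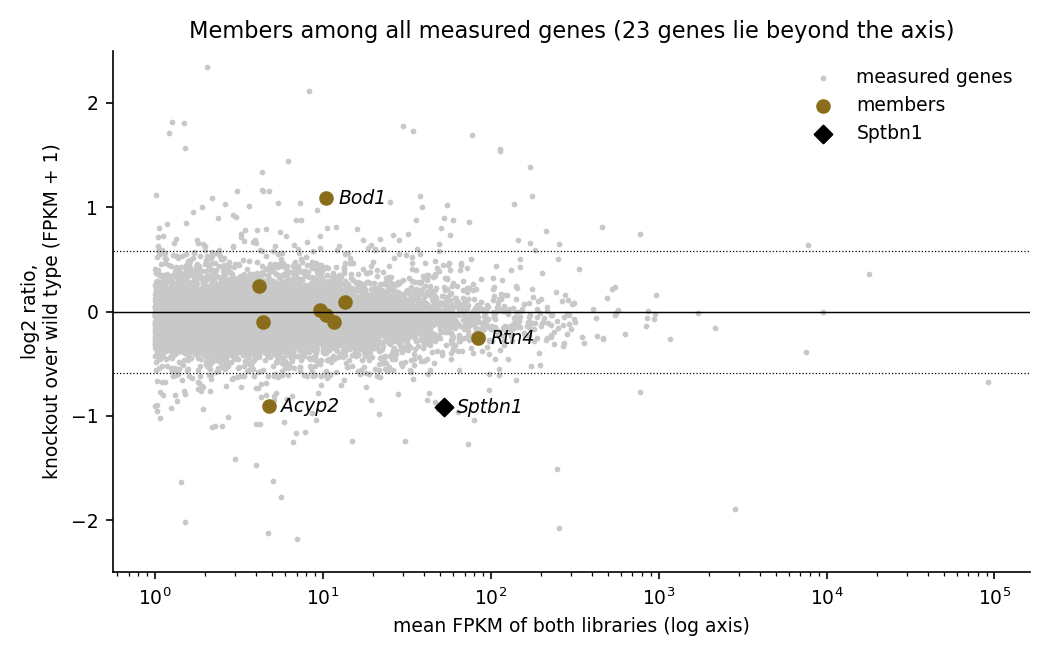
Log2 ratio of knockout over wild type (FPKM + 1) against mean FPKM (log axis) for all 11070 measured genes (grey), with the 9 measured neighbours and Sptbn1 marked and dotted lines at 1.5-fold. The axis stops at 2.5 in each direction, beyond which 23 genes lie. Bod1 and Acyp2 lie outside the dotted lines, Acyp2 level with Sptbn1 on this scale with 1 FPKM added, and the 7 others lie inside.

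The 10 other protein-coding genes within 10 places included 5 measured ones, of which 0 passed 1.5-fold. Their median log2 ratio was 0.01. Cpeb4 at -0.57 came just short, though at 64.7% of the wild-type value it was past 1.5-fold in plain FPKM. Its p-value in the authors' deposited table was 0.00812. Erlec1, a lectin of the endoplasmic reticulum that takes part in protein quality control, had 11.3 FPKM in knockout and 8.97 FPKM in wild-type fibroblasts, a log2 ratio of 0.30. Asb3, with ankyrin repeats and a SOCS box, was at 0.09 and Chac2, an enzyme of glutathione breakdown, at -0.08. All 5 measured genes lie on the side of Acyp2 and Bod1.

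Outside the group, the window genes listed below the measured limit were Gpr75, Clhc1, Rps27a, Fem1al and 4930505A04Rik. Gpr75, a G-protein-coupled receptor gene, was listed at 0.188 FPKM in knockout and 0.748 FPKM in wild-type fibroblasts. The authors' deposited table gave Gpr75 a p-value of 0.00579. Clhc1, Rps27a and Fem1al were each below 0.17 FPKM in both libraries. Rps27a, which encodes a ribosomal protein fused to ubiquitin, was listed at 0.103 FPKM in knockout and 0.0624 FPKM in wild-type fibroblasts. Copies of Rps27a elsewhere in the genome were not searched for.

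Over all 14 measured genes of the window the median log2 ratio was -0.01 and 2 genes passed 1.5-fold. By side, the 6 measured neighbours from Ppp4r3b to Rtn4 had a median of -0.01 and 0 of them passed 1.5-fold. The 3 measured neighbours Acyp2, Psme4 and Bod1 had a median of -0.10, and 2 of the 3 passed. That count leaves out the 5 other measured window genes, all on this side, of which 0 passed. Among all measured genes 2.27% passed. The split by side follows from where Acyp2 and Bod1 lie and from which genes were listed, and was not tested.

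**Figure D3:**
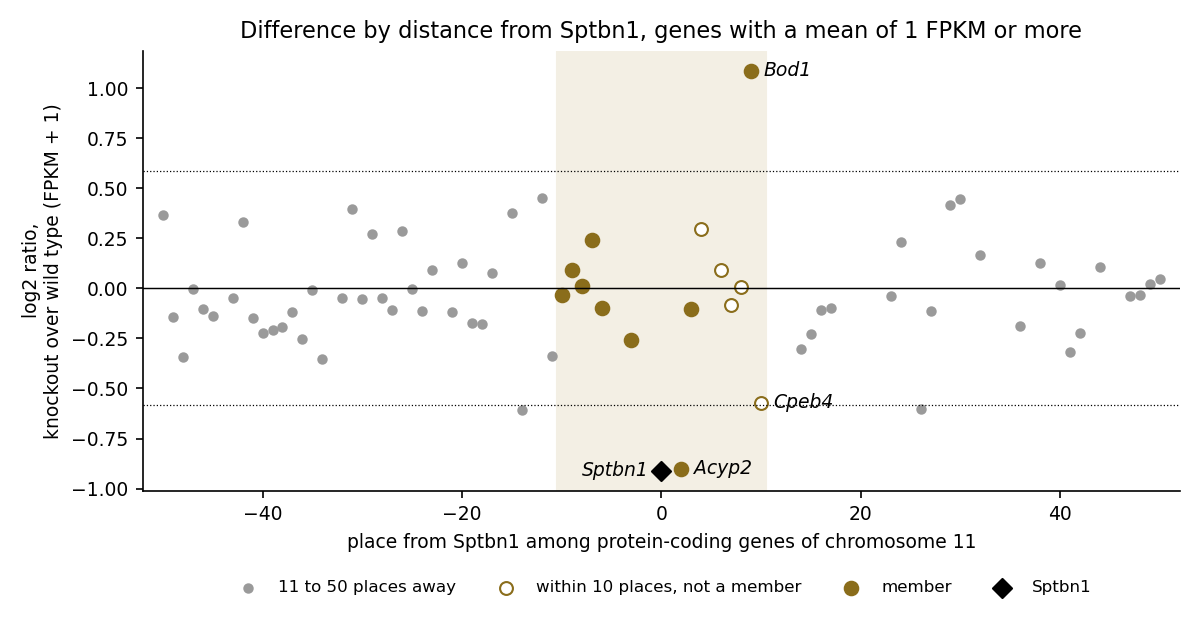
Log2 ratio of knockout over wild type (FPKM + 1) by place on chromosome 11, counted from Sptbn1 in protein-coding genes, for measured genes. Filled points are the 9 measured neighbours, open points the other 5 measured genes within 10 places (shaded), grey points the 56 measured genes 11 to 50 places away, and dotted lines mark 1.5-fold. Bod1 stands alone above the upper line. Acyp2 and Sptbn1 lie together below the lower line, and the grey points of Vrk2 (-0.61) and Stk10 (-0.60) lie just below it.

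Of the 10 neighbours, 5 are transcribed from the plus strand and 5 from the minus strand. Cfap36, Prorsd1, Eml6, Acyp2 and Bod1 share the minus strand with Sptbn1, so both genes with large differences run in the direction of Sptbn1, as do 3 genes without. In the same annotation 7 of the 10, Acyp2 and Bod1 among them, share no exon base with another gene. The longest protein-coding transcript of each was also searched against all annotated mouse transcripts for alignments of 200 bases or more at 95% identity or more. For 9 of the 10, again including Acyp2 and Bod1, there was no such match in another gene. The exception was the stretch that Eml6 shares with Rtn4. The transcripts of Acyp2 and Bod1 are the shortest of the 10, at 863 and 1394 bases.

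Each neighbour was set beside the listed genes of its own family or complex. Signs and counts here are on the deposited scale, and on a common FPKM sum the medians of all 10 lists without the neighbours were positive, between 0.33 and 0.69. Of all measured genes, 36.9% lay above 0 and 2.27% passed 1.5-fold, so a short list would hold few or 0 such genes. Acyp1, the other acylphosphatase gene, had 9.51 FPKM in knockout and 7.78 FPKM in wild-type fibroblasts. Its log2 ratio of 0.26 lay on the other side of 0 from Acyp2 at -0.90. The levels of the 2 acylphosphatase genes summed to 12.5 FPKM in knockout and 14.3 FPKM in wild-type fibroblasts.

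BOD1 holds the phosphatase PP2A with its B56 subunits in check at kinetochores. Bod1l, the larger relative of Bod1, had 9.64 FPKM in knockout and 8.57 FPKM in wild-type fibroblasts, a log2 ratio of 0.15. The 15 listed partners, Bod1l included, were all measured, with 10 above 0, 5 below, a median of 0.06 and 0 past 1.5-fold. The widest were the mitotic kinesin gene Kif2c at 0.25, the B56 subunit gene Ppp2r5a at 0.23 and the centromere protector gene Sgo1 at -0.21. The 1.09 of Bod1 lay above the whole range of this list. Of the 11070 measured genes, 31 lay as high or higher, so most lists would lie below it.

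Psme4 was set beside the other proteasome activators and the subunits of the 20S core. All 21 were measured, with 9 above 0, 12 below, a median of -0.02 and 0 past 1.5-fold. The core subunit gene Psmb5 was at -0.50, the activator gene Psme2 at 0.43 and the immunoproteasome gene Psmb10 at -0.38. Psme1 was at 0.08 and Psme3 at 0.06, on the other side of 0 from Psme4 at -0.10.

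Rtn4 was set beside a list of reticulons, receptors and other shapers of the endoplasmic reticulum. Of 16 such genes, 8 were measured, 1 above 0 and 7 below, with a median of -0.11 and 0 past 1.5-fold. Of all measured genes, 63.1% lay below 0. With the low genes of the list kept in, its median was -0.00895. Rtn3 had 41.3 FPKM in knockout and 44.1 FPKM in wild-type fibroblasts, a log2 ratio of -0.09, while Rtn1 and Rtn2 were below the measured limit. The neurotrophin receptor gene Ngfr was at -0.32, the tubule-fusing atlastin gene Atl3 at -0.19 and Reep5 at -0.16. The Nogo receptor gene Rtn4r was listed at 0.193 FPKM in knockout and 0.0997 FPKM in wild-type fibroblasts.

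The remaining lists also held 0 genes past 1.5-fold. Of 11 other mitochondrial translation factors 10 were measured, 7 above 0 and 3 below, with a median of 0.03. Mtif3, the initiation factor that works with Mtif2, was at 0.31, the elongation factor gene Gfm2 at -0.23 and Tsfm at -0.10. Of 10 other genes of the girdin list 7 were measured, with 3 above 0 and a median of -0.09. The G-protein gene Gnai1 was at -0.38, Dvl1 at -0.19 and Dvl3 at 0.18, and the relatives Ccdc88b and Ccdc88c were below 0.13 FPKM in both libraries. The 8 listed partners of ARL3 were all measured, 4 above 0 and 4 below, with a median of -0.06 and Arl2bp lowest at -0.19, Unc119b at -0.18 and Unc119 at -0.16.

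For protein phosphatase 4, 5 of 6 other genes were measured, 1 above 0 and 4 below, with a median of -0.08. Ppp4r3a, the close relative of Ppp4r3b, was at -0.08, Ppp4r1 at -0.17, Ppp4r2 at -0.11 and Igbp1 at 0.17. Of the 5 other EML genes 4 were measured, with Eml3 at -0.13, Eml2 at 0.08, Eml4 at -0.05 and Eml1 at -0.04, and Eml5, at 0.354 FPKM in knockout and 0.430 FPKM in wild-type fibroblasts, was not. Eml4 was the most abundant, at 8.83 FPKM in knockout and 9.18 FPKM in wild-type fibroblasts, a level far above that of Eml6. Of the genes listed with Prorsd1, Eprs, the glutamyl-prolyl-tRNA synthetase gene, was at 0.15, Aarsd1 at -0.03 and Dtd1 at -0.01. Over all lists, 82 measured genes that are not neighbours of Sptbn1 had a median of -0.02, and 0 of the 82 passed 1.5-fold. The shares that passed were 2.27% of all measured genes and 1.46% of the measured protein-coding genes of the other chromosomes.

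**Figure D4:**
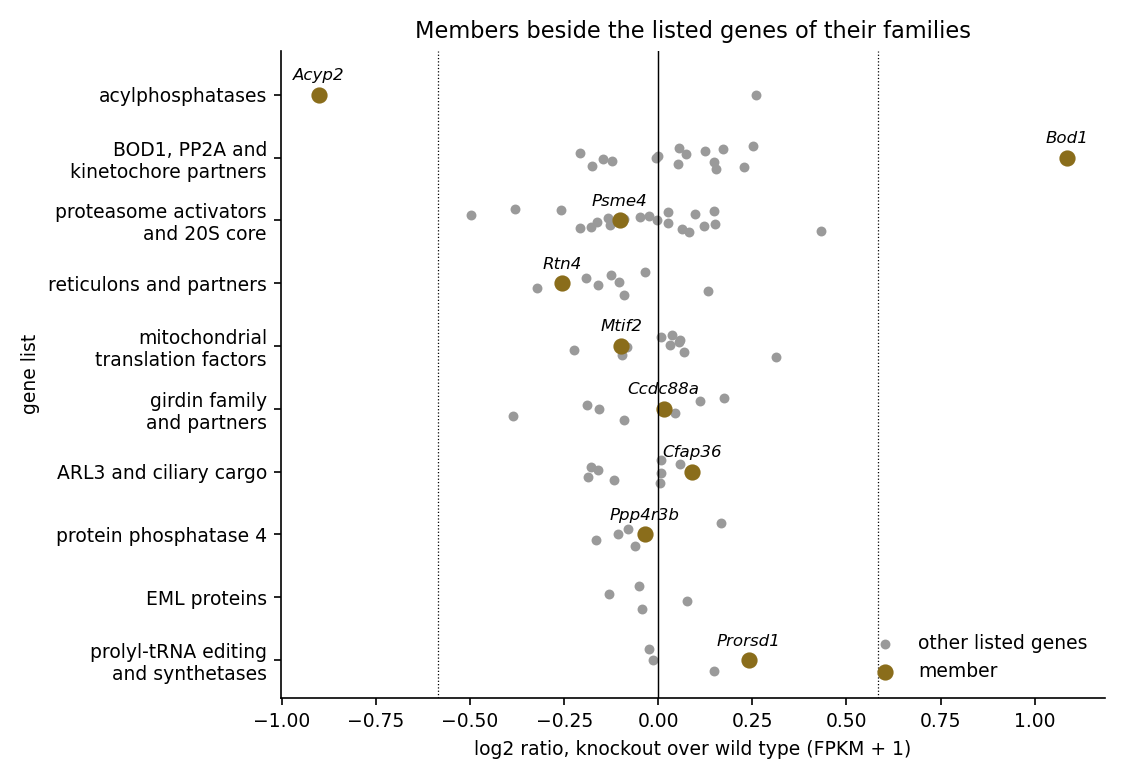
Log2 ratio of knockout over wild type (FPKM + 1) for each measured neighbour (large points) and the other measured genes of its family or complex (grey points), 1 row per list, with dotted lines at 1.5-fold. Acyp2 at -0.90 lies apart from Acyp1 at 0.26, and Bod1 at 1.09 lies above its list, whose highest gene is at 0.25. Of the 11070 measured genes, 31 were as high as Bod1 or higher, so most lists would lie below it. A dotted line is passed by 0 of the grey points, against 2.27% of all measured genes.

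The directions depend on the scaling for the genes near 0 and not for Acyp2 and Bod1 under the settings run. When both libraries were brought to a common FPKM sum, the log2 ratio of Acyp2 was -0.54, that of Bod1 1.53 and that of Sptbn1 -0.45, and the median of all measured genes moved to 0.34. On that scale Acyp2 no longer passed 1.5-fold and Prorsd1, at 0.64, did. Psme4, Rtn4, Mtif2 and Ppp4r3b turned positive there, at 0.33, 0.21, 0.29 and 0.40. That sum is weighed on by few rows, since the small RNA row Mir682 made up 25.2% of it for the knockout and 29.1% for the wild type, and Dnaja1 0.00135% and 5.59% (both chosen after their values were seen). With the median log2 ratio set to 0, Acyp2 was at -0.86 and Bod1 at 1.14, and Ppp4r3b was the single neighbour to change sign, at 0.02. It was also at 0.02 on a common upper quartile.

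**Figure D5:**
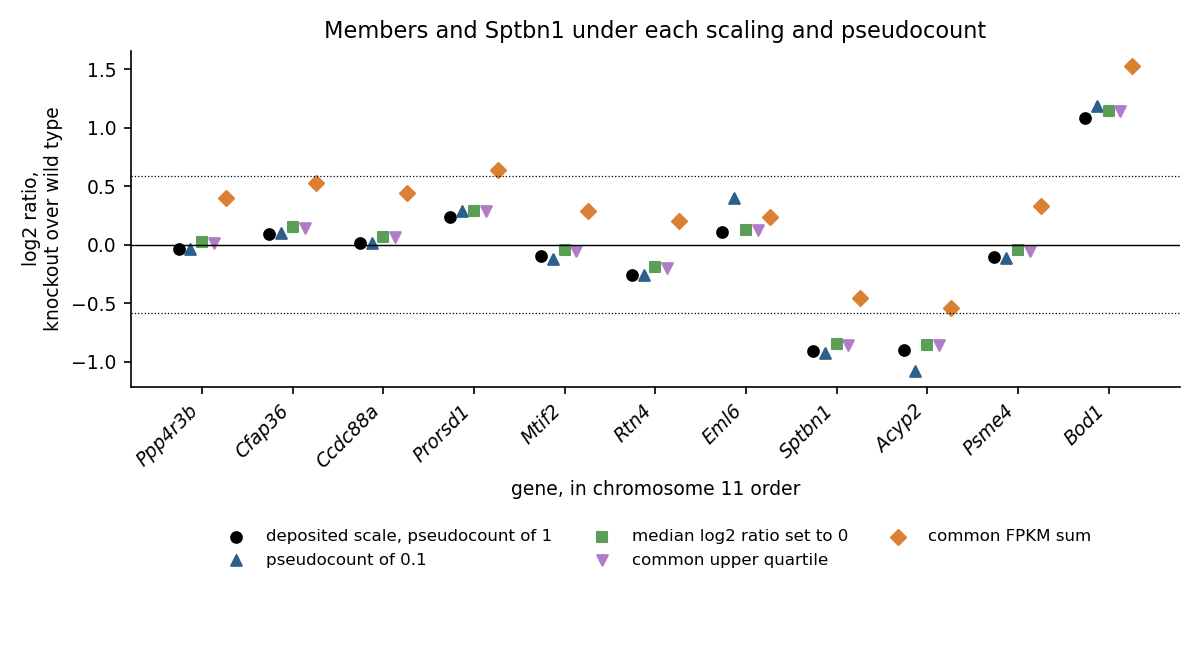
Log2 ratio of knockout over wild type for the 10 neighbours and Sptbn1 under the deposited scale with pseudocounts of 1 and 0.1 FPKM, and under 3 other scalings, with dotted lines at 1.5-fold. Bod1 lies above 1 in all 5 settings and Acyp2 below -0.5 in all 5, while Psme4, Rtn4, Mtif2 and Ppp4r3b lie above 0 on the common FPKM sum.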

How the data were processed

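Per the labels' protocols, each of the 2 libraries was made with the Illumina TruSeq RNA kit from 1 µg of total RNA. Per the series' design text, HiSeq 2000 reads were checked with FastQC and, for adaptors, Trimmomatic, aligned with TopHat2 version 2.0.10 to NCBI mouse build 37.2, quantified with Cufflinks and compared with Cuffdiff2. The authors deposited FPKM per gene and library, and a p-value per gene, per the file headers. Their fold column holds spreadsheet errors and was not used. The header of the second FPKM column holds the wild-type name together with -/-. It was read as the wild-type column because only that title matches, and every direction rests on this reading.

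Repeated names were reduced to their most abundant row. Symbols and gene order came from the RefSeq table of GRCm38.p6, and exons and transcripts from GENCODE vM21, on another build than the reads. Of the 10 neighbours 7 matched a current symbol and 3 an older one, and all 10 matched the start-region table. Log2 ratios used a pseudocount of 1 FPKM. No test was possible with 1 library per genotype, and without fragment totals no interval or detection floor was computed. The calculation was tested on simulated data.

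The named genes were Sptbn1, the 10 neighbours, other protein-coding genes within 10 places, relatives of the neighbours, up to 3 measured genes of each list with the largest differences, and the 3 highest and 3 lowest genes 11 to 50 places away. Others were chosen after their values were seen. Members and lists were chosen with earlier results of these data known. Alternatives were a pseudocount of 0.1 FPKM, 3 scalings, minimum means of 5 FPKM or none, a smaller fold (log2 of 0.32) and 2-fold, windows of 5, 25 and 50 places, and summing rows of a repeated name. Python 3.11.15, pandas 2.3.3, NumPy 2.4.6 and BLAST 2.17.0 were used.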

Additional observations from a re-analysis of the deposited data

How the results depend on the processing

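No paired analysis was possible because each genotype had 1 library, and for the same reason no library could be left out. Values that shifted by under 0.1 on the log2 scale, and counts that stayed within 1.5 times, numbered 162 of 220, and Acyp2, Bod1 and Sptbn1 kept their sign in all settings run. Summing the rows of a repeated name could not change the 10 neighbours, since 0 of them had a repeated name. Those fixed values are among the 162. With a pseudocount of 0.1 FPKM the log2 ratio was -1.08 for Acyp2, -0.93 for Sptbn1, 1.19 for Bod1 and 0.40 for Eml6.

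On a common FPKM sum the log2 ratios were 0.40 for Ppp4r3b, 0.53 for Cfap36, 0.44 for Ccdc88a, 0.64 for Prorsd1, 0.29 for Mtif2, 0.21 for Rtn4, 0.23 for Eml6, -0.54 for Acyp2, 0.33 for Psme4 and 1.53 for Bod1. Medians there were 0.40 for the measured neighbours, 0.40 for the other window genes, 0.40 for the whole window, 0.33 for genes 11 to 50 places away and 0.34 for all measured genes. Without the neighbours, medians of their lists were 0.69 for acylphosphatases, 0.49 for BOD1 partners, 0.44 for proteasome genes, 0.33 for reticulons, 0.38 for mitochondrial translation, 0.36 for girdin partners, 0.35 for ARL3 partners, 0.34 for protein phosphatase 4, 0.35 for EML genes and 0.39 for the genes listed with Prorsd1. With no filter on low values the reticulon median was -0.00895.

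Genes past 1.5-fold numbered 115 higher and 136 lower in the knockout library. They were 207 and 278 with a pseudocount of 0.1 FPKM, 1020 and 48 on a common sum, and 67 and 77 at a mean of 5 FPKM or more. At a log2 difference of 0.32, the smaller fold tried, there were 426 and 722, and at 2-fold 40 and 42. At a mean of 5 FPKM or more, or at 2-fold, 1 neighbour passed, and 1 gene of the window. That gene was Bod1, since Acyp2 averaged under 5 FPKM and lay under 2-fold with the pseudocount of 1 FPKM, though not in plain FPKM. Of the window genes outside the group, 1 passed with a pseudocount of 0.1 FPKM, 1 on a common sum and 1 at the smaller fold, and at a mean of 5 FPKM or more their median was -0.14. The 2 genes 11 to 50 places away that passed became 5 with a pseudocount of 0.1 FPKM, 10 on a common sum and 12 at the smaller fold. They became 0 with the median or the upper quartile as scale, at a mean of 5 FPKM or more, and at 2-fold. Within 5 places the median was -0.18 over 4 genes with 1 passing, and within 50 places 4 passed. The cause of these shifts was not tested. Low levels limit the values of Eml6 and of the other window genes under 1 FPKM.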

Other observations

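Of 56 measured protein-coding genes 11 to 50 places from Sptbn1 on chromosome 11, 0 were 1.5-fold higher and 2 were 1.5-fold lower in the knockout library, with a median log2 ratio of -0.05. The 2 are 3.57% of the 56, against 2.27% of all measured genes and 1.46% of the measured protein-coding genes of the other chromosomes. A log2 difference of 0.32 in either direction was passed by 12 of the 56, against 1148 of all 11070 measured genes. Both lower genes encode kinases. Vrk2, 14 places away on the side of Rtn4, had 1.52 FPKM in knockout and 2.84 FPKM in wild-type fibroblasts (-0.61). Stk10, 26 places away on the side of Bod1, had 1.47 FPKM in knockout and 2.75 FPKM in wild-type fibroblasts (-0.60). Wdpcp, a planar cell polarity gene of cilia, was next at -0.35. The highest were Efemp1, which encodes the matrix protein fibulin-3, at 0.45, the nucleolar gene Npm1 at 0.45 and the growth factor gene Fgf18 at 0.42. The authors' deposited table gave p-values below 0.05 to 2 of the 56 (3.57%), against 5.6% of all measured genes. These 2 were Stk10 (0.0011) and Fancl (0.0229), and Vrk2 was given 0.0692. Fancl was higher in the knockout library, with 2.71 FPKM in knockout and 1.86 FPKM in wild-type fibroblasts.

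Over the other 753 measured protein-coding genes of chromosome 11, 6 passed 1.5-fold (0.797%), 4 of them higher and 2 lower in the knockout library, and the lowest was at -2.18. Over the 9369 measured protein-coding genes of the other chromosomes, 137 did (1.46%). By chromosome (19 autosomes and X), the median log2 ratio ran from -0.07 to -0.04 and the share past 1.5-fold from 0.382% to 3.38%. Chromosome 11, with 824 measured genes, had a median of -0.05 and 1.33% past 1.5-fold, Sptbn1, Acyp2 and Bod1 among them.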
